A study of Mus musculus with 10 samples.

Results

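The miRNAs described here are those of the rodent miR-297, miR-466, miR-467 and miR-669 families, most of which are processed from 1 long intron of the gene Sfmbt2. They were chosen by name, as every row of the deposited miRNA table whose symbol begins with one of these 4 numbers, and 38 of the 1061 mature miRNAs of the table met that rule. Small RNA was sequenced from both retinas of 5 wild-type C57BL/6J mice (numbers 61, 64, 65, 66 and 68) at postnatal day 34. In each mouse a plastic goggle with a lens of -20 D had covered 1 eye for 10 days from postnatal day 24, a treatment used to induce myopia, and the contralateral eye had no lens. Which eye carried the lens is not given by the labels, so the groups are 5 left and 5 right retinas, and neither is called treated.

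A miRNA is cut from a hairpin in a longer transcript, and either arm of the hairpin, named 5p or 3p, can give a mature miRNA. Bases 2 to 8 of the mature miRNA, the seed, pair with target mRNAs and largely set which mRNAs are repressed. Sfmbt2 encodes a Polycomb-related chromatin protein and is imprinted, with expression from the paternal allele in the early embryo and the placenta. Its intronic cluster arose in rodents by repeated duplication, so that its hairpins resemble each other and many of their miRNAs consist largely of alternating purine and pyrimidine bases.

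By position, 34 of the 38 miRNAs lay in Sfmbt2, which spans chromosome 2 from 10370510 to 10595253 in GRCm38. All of these 34 were on the strand of the gene and in its intron 10, between 10467248 and 10514958, a stretch of 47.7 kb. The table held 0 miRNAs of other names within the gene. GENCODE annotates 71 hairpins of these families inside Sfmbt2, and the positions of the 34 rows lay in 27 of them, with 1 position listed for a miRNA even where several hairpin copies encode it. The other 4 miRNAs were elsewhere: both arms of miR-466i in an intron of Cdk13 on the opposite strand (chromosome 13), miR-466q in an intron of Tnik on chromosome 3, and miR-467h outside other annotated genes on chromosome 9. The name of the Sfmbt2 cluster therefore held for 34 of the 38 rows.

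RefSeq sequences matched 3 of the 38 miRNAs, all 3 outside Sfmbt2. No sequence of the miR-297 or miR-669 family was at hand. The 3 are shown, 5′ to 3′ with the seed in capitals, because they let the repeat character of these 3 miRNAs be seen.
miR-466i-3p: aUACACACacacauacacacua
miR-466q: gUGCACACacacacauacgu
miR-467h: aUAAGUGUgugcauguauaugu
The first is at chr13:17747552-17747573, the second at chr3:28419988-28420007 and the third at chr9:115381898-115381919, each on the plus strand of GRCm38.p6. miR-466i-3p and miR-466q contain the run ACACAC, which 7 of the 909 mature miRNAs of the table with a RefSeq sequence contain (0.770%). miR-467h contains GUGUGU, found in 9 of the 909 (0.990%). Both runs were searched on the miRNA strand only. The seeds of miR-466i-3p and miR-466q were shared with 0 other miRNAs of these 909, and that of miR-467h with 1, miR-668-5p. The other members of these families had no sequence at hand and were not among the 909. Whether they share these seeds or runs could therefore not be checked, and both percentages leave them out.

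The retina held these miRNAs at low levels. Values are the authors' normalised read counts, called normalised reads here, and the sequencing depth behind them is unknown. Together the 38 miRNAs took 0.00113% ± 0.000135 (SD over 10 libraries) of the normalised total of a library. The highest, miR-467c-5p, had a mean of 37.3 normalised reads and was the 356th miRNA of the table by mean level. The lowest, miR-466h-3p, had a mean of 0.192 and was at 0 in 8 of 10 libraries. Of the 38, 5 reached a mean of 10 over all libraries, the minimum for a test, and 13 had a mean below 1. In a single library, between 12 and 25 of the 38 had a value of at least 1, and between 1 and 6 were listed at 0.

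**Figure D1:**
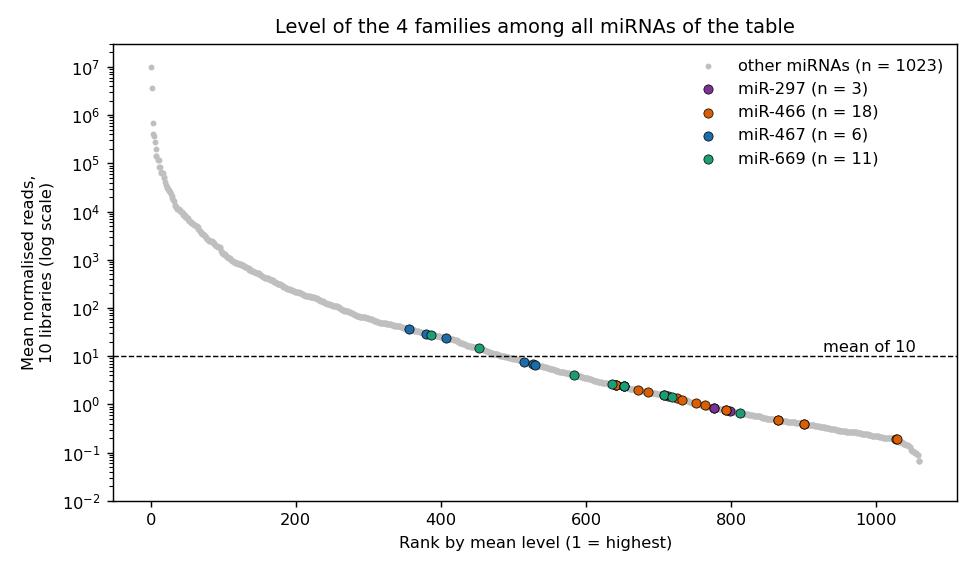
Mean level over 10 libraries (log scale) against rank for the 1061 miRNAs of the table, with the 4 families in colour and the other 1023 miRNAs in grey. The 5 members above the dashed line at a mean of 10 are 3 miR-467 and 2 miR-669 miRNAs, and no miR-297 or miR-466 miRNA lies above it.

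Other groups of the same table were placed differently along this scale. A mean of 10 was reached by 13.2% of the 38 miRNAs, by 45.6% of all 1061, by 19.4% of the 458 miRNAs numbered 1000 or above, and by 61.8% of the 68 miRNAs between miR-379 and miR-410 on chromosome 12, another imprinted cluster. The median of the mean levels was 1.56 normalised reads for the 38 miRNAs, 6.51 for the table, 1.14 for the miRNAs numbered 1000 or above and 32.1 for the chromosome 12 cluster. These are descriptions of levels in a library kit that ligates some sequences better than others, and no test was made between the groups.

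The libraries had the profile of retina. The photoreceptor miRNA miR-182-5p had the highest value of all miRNAs in all 10 libraries, and the neuronal miR-124-3p was between 76000 and 88655 normalised reads. The values of miR-182-5p were identical, but the normalisation gives the top rank the same value in each library. That identity therefore does not show how constant its level was. Among markers of other tissues, those of skeletal muscle and miR-184-3p stood out in 1 library each. The summed markers of erythrocytes (highest 4420, next 3541) and of vessels (highest 22987, next 21420) did not stand out in this way. The 4 skeletal muscle miRNAs summed to 1742 in the left retina of mouse 68 and to at most 399.6 in the other 9 libraries, with 2 of the 4 at 0 in at least 1 library. The 3 miRNAs of lens, cornea and epithelium summed to 22622 in the right retina of mouse 65 and to at most 2338 in the other 9 libraries. Of that sum miR-184-3p alone made 22384, and it was at most 2117 elsewhere. miR-205-5p was highest in the right retina of mouse 64 (49.4) and miR-203-3p in the left retina of mouse 64 (228). None of the 3 was at 0 anywhere. In the left library of mouse 68 and the right library of mouse 65 the 38 miRNAs summed to 184.9 and 186.2, within the range of the others.

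The miR-467 family was the most abundant of the 4, with 6 miRNAs and 111 ± 14.3 normalised reads in sum (SD over 10 libraries). miR-467 miRNAs have been studied as glucose-responsive repressors of thrombospondin-1, a matrix protein that limits vessel growth. miR-467c-5p (chromosome 2, 10473941 to 10473962) was at 53.7, 37.8, 2.53, 48.9 and 33.9 normalised reads in the left retinas of mice 61, 64, 65, 66 and 68. In the right retinas of the same mice it was at 55.0, 35.1, 33.0, 43.5 and 30.2. The left retina of mouse 65 was far below the other 9 libraries, and the values of the sides overlapped.

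miR-467d-5p (chromosome 2, 10507640 to 10507661) was at 27.6, 19.8, 41.8, 13.3 and 33.9 normalised reads in the left retinas, in the same order of mice, and at 20.4, 35.1, 33.0, 21.3 and 48.9 in the right. The left library of mouse 65, lowest for miR-467c-5p, had the second highest value of miR-467d-5p. In 3 libraries, the left of mouse 68 and the right of mice 64 and 65, miR-467c-5p and miR-467d-5p had exactly the same value. miR-467b-5p (chromosome 2, 10481256 to 10481276) was at 37.2, 37.2, 28.0, 6.14 and 22.8 in the left retinas and at 11.7, 30.2, 23.1, 12.9 and 27.1 in the right. It was lowest in the left retina of mouse 66, and the sides overlapped.

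The other 3 miR-467 miRNAs had means just below 10 and were not tested. The left library of mouse 66 had 21.6 normalised reads of miR-467a-5p and the right library of mouse 61 had 22.1, whereas the other 8 libraries had 1.33 to 4.36. These 2 libraries had the lowest values of miR-467b-5p, 6.14 and 11.7. The sum of miR-467a-5p and miR-467b-5p was 27.8 and 33.8 there and ran from 14.3 to 41.5 in the other 8 libraries. The lowest sum was in the right retina of mouse 66, where miR-467b-5p was nearly as low, at 12.9, and miR-467a-5p was low too, at 1.33. miR-467e-5p in Sfmbt2 and miR-467h on chromosome 9 had the same value in 8 of 10 libraries, from 3.09 to 8.95. They differed in the right retina of mouse 66, with 17.0 for miR-467e-5p and 0.385 for miR-467h, and in that of mouse 65, with 2.15 and 10.4.

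The sum of the family varied less than its members. Over the 10 libraries the coefficient of variation was 12.8% for the sum of the 6 miRNAs, and from 37.5% to 122% for the single miRNAs. The SD of the sum was 14.3 normalised reads, and 23.5 would be given by 6 independent miRNAs with the same single SDs. For miR-467b-5p, miR-467c-5p and miR-467d-5p alone the SD of the sum was 15.4, with 21.5 for independent values. For the 5 tested miRNAs, which are these 3 and 2 miR-669 miRNAs, the SD of the sum was 13.4, with 23.3 for independent values. As most of the 5 are the same miR-467 miRNAs, this sum cannot say whether the smaller SD extends beyond the family. The miR-669 miRNAs alone were not compared in this way. How the authors assigned reads that match several of these miRNAs is not given in the sources used here, and its part in these values was not tested.

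**Figure D2:**
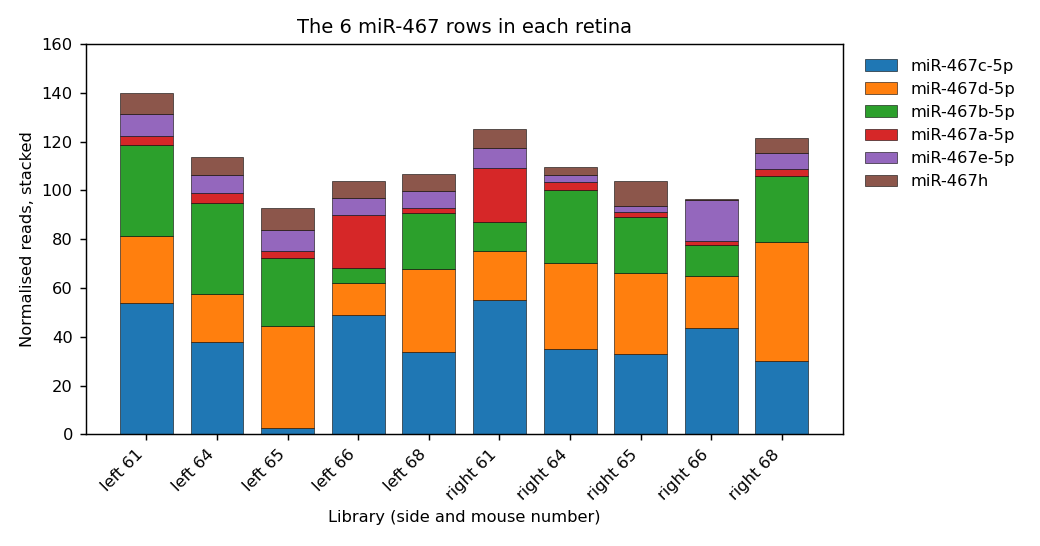
Normalised reads of the 6 miR-467 miRNAs stacked for each library, with left retinas first. The sum runs from 92.9 to 140 normalised reads, while the parts differ more: miR-467c-5p is at 2.53 in the left library of mouse 65, and miR-467a-5p is wide and miR-467b-5p narrow in the left library of mouse 66 and the right library of mouse 61, whereas both are low in the right library of mouse 66.

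The miR-669 family came next, with 11 rows, all in Sfmbt2, and a sum of 61.4 ± 9.40 normalised reads (SD over 10 libraries). miR-669a of this family has been described as a repressor of the muscle regulator MyoD in cardiac progenitors. miR-669o-5p (chromosome 2, 10514318 to 10514340) was at 21.3, 28.0, 35.5, 35.1 and 21.6 normalised reads in the left retinas of mice 61, 64, 65, 66 and 68. In the right retinas it was at 27.0, 32.4, 13.9, 30.2 and 33.4. Its lowest value was in the right library of mouse 65, the library with the high miR-184-3p, and a link between these values was not tested. miR-669c-5p (chromosome 2, 10509319 to 10509340) was at 21.9, 8.72, 12.8, 15.5 and 18.3 in the left and at 12.4, 5.90, 24.0, 16.5 and 9.25 in the right retinas. Its lowest and its highest value were both in right retinas.

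The other 9 miR-669 rows had means from 0.663 to 4.09 normalised reads. For miR-669f-5p the right libraries of mice 61 and 65 had 18.5 and 13.6, and the other 8 libraries had 0.0696 to 4.36. Its median was therefore 0.837, well below its mean of 4.09. miR-669d-5p ran from 0.625 to 5.77, with a median of 2.55. The opposite arm of the miR-669o hairpin, miR-669o-3p, had a mean of 2.36, 11.8-fold below miR-669o-5p, and its value was the same as those of miR-669a-3p and miR-669a-3-3p in every library.

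The miR-466 family had the most rows, 18, with a sum of 21.1 ± 7.79 normalised reads (SD over 10 libraries). miR-466h-5p of this family has been described as a promoter of apoptosis in nutrient-depleted cells, and here it ran from 0 to 4.74 normalised reads. Of the 18, 0 reached a mean of 10, 9 had a mean below 1 and 8 were at 0 in at least 1 library. The highest means, 2.52, belonged to miR-466b-3p, miR-466c-3p and miR-466p-3p, whose values were identical. miR-466e-5p was at 6.29 in the left retina of mouse 66 and at 5.21 in the right retina of mouse 61, the same libraries in which miR-467a-5p was high, and at most 1.23 elsewhere.

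Of the miR-466 miRNAs outside Sfmbt2, miR-466i-3p, whose sequence is shown above, was at 0 in 6 libraries and at most 5.00. Its other arm miR-466i-5p ran from 4.12e-14 to 3.30 normalised reads, and the first of these values shows that a value above 0 need not stand for a read. miR-466q was at 0 in 6 libraries and at most 0.700. The miR-297 family had 3 rows, miR-297a-5p, miR-297b-5p and miR-297c-5p, with means from 0.720 to 0.853 and a highest value of 2.87. All 3 were at 0 in the right retina of mouse 68.

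**Figure D3:**
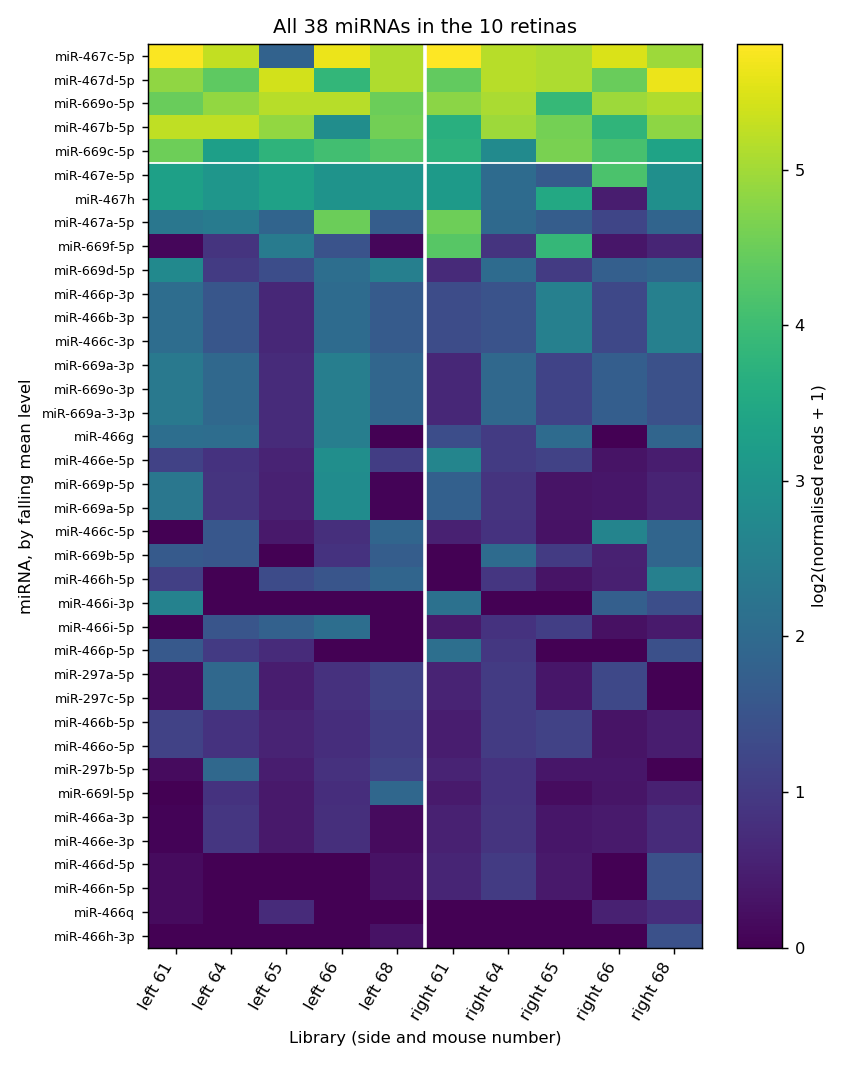
log2(normalised reads + 1) of the 38 miRNAs (rows, by falling mean) in the 5 left and 5 right libraries, with the 5 tested miRNAs above the white horizontal line. Single libraries stand out in otherwise even rows, such as miR-467c-5p in the left library of mouse 65, and blocks of neighbouring rows have the same colours because their values are identical.

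Many of these miRNAs could not be told apart by their values. Of the 38, 16 had the same value as another member in all 10 libraries (42.1%), in 7 groups of 2 or 3. Among the other 1023 miRNAs of the table, 31 had such a twin (3.03%), among the 458 numbered 1000 or above 22 (4.80%), and among the 68 of the chromosome 12 cluster 1 (1.47%). The groups were miR-297a-5p with miR-297c-5p; miR-466a-3p with miR-466e-3p; the 3 miR-466 3p miRNAs named above; miR-466b-5p with miR-466o-5p; miR-466d-5p with miR-466n-5p; the 3 miR-669 3p miRNAs named above; and miR-669a-5p with miR-669p-5p. All members of a group belonged to 1 family but to different hairpins. The 38 rows thus held 29 different profiles, and if each profile is counted once their share of the normalised total is 0.00105%.

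**Figure D4:**
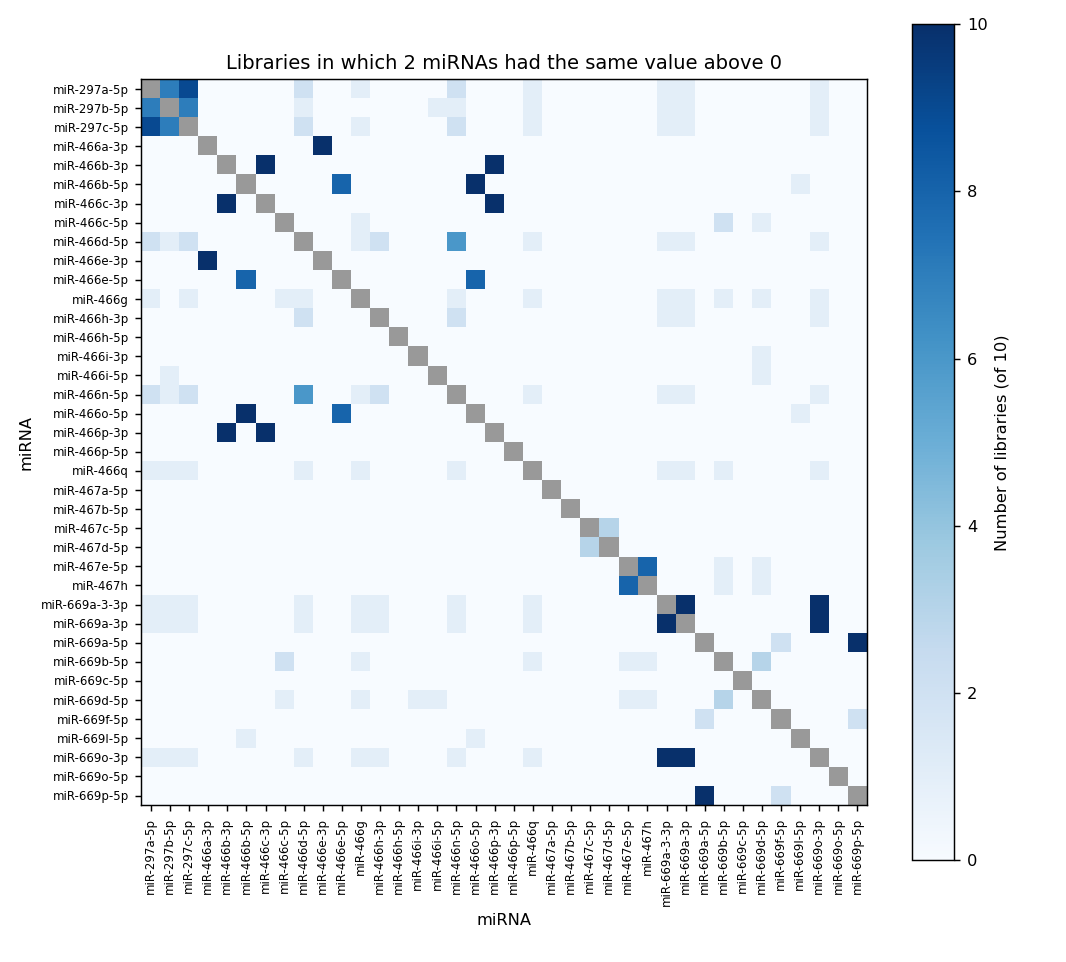
Number of libraries, of 10, in which 2 of the 38 miRNAs had exactly the same value above 0; the diagonal is grey. Of the 703 pairs, 9 were equal in all 10 libraries and 13 in at least 8, and the dark cells lie within families.

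Both arms were listed for 8 hairpins. The 5p arm had the higher mean in 3 of them, Mir669o, Mir466e and Mir466h, and the 3p arm in 5. Except for Mir669o the ratios were between 1.20 and 7.07, between arms of which none had a mean above 2.52. As the 3p values of Mir466b-1, Mir466c-1, Mir466p, Mir466e, Mir669a-3 and Mir669o were shared with other hairpins, most of these ratios do not belong to 1 hairpin alone.

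The comparison of right with left retina asks whether these miRNAs differ between the sides within an animal. It is no test of the lens, since the lens may have been on different sides in different mice, and its effect could then cancel. The sum of the 38 miRNAs was 198.7 ± 29.4 normalised reads on the left side and 193.9 ± 18.8 on the right (SD, n = 5), and was higher on the right in 2 of 5 mice. In the left retinas of mice 61, 64, 65, 66 and 68 the sum was 237, 192, 162, 218 and 185, and in the right retinas 214, 185, 186, 171 and 213. The ranges of the sides overlapped. Over 5 mice, the families summed to 111 ± 17.7 and 111 ± 12.03 for miR-467, 64.3 ± 12.7 and 58.5 ± 4.01 for miR-669, 19.7 ± 7.44 and 22.5 ± 8.73 for miR-466, and 3.23 ± 3.25 and 1.63 ± 1.30 for miR-297, left and right. Each of these differences was smaller than the SD of the left retinas, but those of miR-669 and miR-297 were larger than the SD of the right retinas. These SDs are between animals and do not measure the spread of the differences within mice. The sum of each family was higher on the right in 2 of 5 mice. In whole retina, fewer cells with a miRNA and less of it per cell cannot be told apart.

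None of the 5 tested miRNAs passed the test, and none was at an unadjusted p under 0.05. Over all 484 miRNAs tested with limma, 0% passed (0 miRNAs), and 2.48% (12 miRNAs) were at an unadjusted p under 0.05. That number was 63 without mouse 65, 7 without mouse 64, 66 or 68, and 19 without the mean-variance trend, and none of the 5 members was among them in any of these fits. The median log2 fold change, right minus left on the log2(value + 1) scale, was -0.07 for the 5 miRNAs and -0.01 for all tested. Of the 5, 2 lay above 0 and 3 below, against 226 and 258 of all tested. None of the 5 had 1 direction in all 5 mice, as 1.86% of the tested miRNAs did with a higher and 1.86% with a lower right value.

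miR-467c-5p had the largest log2 fold change of the 5, with means of 35.4 ± 20.04 normalised reads (left) and 39.3 ± 10.1 (right; SD, n = 5). Its log2 fold change was 0.57 (95% interval -0.73 to 1.88, adjusted p by limma 0.958). The differences of the single mice were 0.03, -0.10, 3.27, -0.16 and -0.16 for mice 61, 64, 65, 66 and 68, so that mouse 65 set the value, and without it the log2 fold change was -0.10. miR-467d-5p, with 27.3 ± 11.2 and 31.7 ± 11.7 in left and right retina, had 0.24 (interval -0.31 to 0.79, adjusted p by limma 0.958), and was higher on the right in 3 of 5 mice. Its value ran from 0.10 without mouse 64 to 0.40 without mouse 61. miR-467b-5p, with 26.3 ± 12.8 and 20.98 ± 8.32, had -0.19 (interval -1.04 to 0.66). In mouse 61 it differed by -1.59, and without that mouse the value was 0.16.

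The miR-669 miRNAs showed the same scatter between mice. miR-669c-5p had means of 15.5 ± 5.06 normalised reads (left) and 13.6 ± 6.98 (right; SD, n = 5), with a log2 fold change of -0.25 (interval -0.999 to 0.50). The right retina was the lower one in 3 of 5 mice, and the value ran from -0.53 without mouse 65 to -0.08 without mouse 68. miR-669o-5p was at 28.3 ± 6.91 and 27.4 ± 7.92, with -0.07 (interval -0.76 to 0.61). Its right value was higher in 3 of 5 mice and its difference was -1.29 in mouse 65, without which the log2 fold change was 0.23. The 95% intervals of the 5 had a median half-width of 0.75, against 0.34 for all tested miRNAs. The latter include far more abundant miRNAs, of which miR-182-5p and miR-181a-5p had an SD of 0. The half-widths were not compared at like level.

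**Figure D5:**
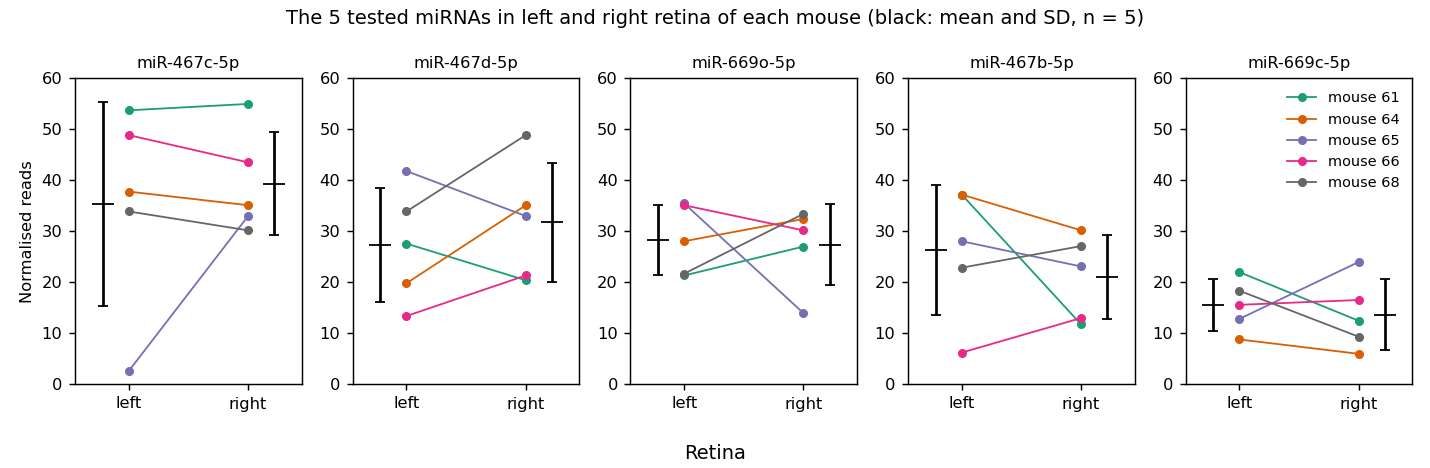
Normalised reads of the 5 tested miRNAs in the left and right retina of each mouse, joined by a coloured line, with the mean and SD of each side in black (n = 5). The lines cross in every panel, and the mean of neither side lies outside the SD of the other.

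Levels were also compared between the animals. In the same limma fit, 0 of the 5 miRNAs differed between mice at an adjusted p under 0.05, and 0 at an unadjusted p under 0.05. Of all 484 tested miRNAs, 1.65% differed between mice (8 miRNAs; 14.0% at an unadjusted p under 0.05). Without mouse 61, 64, 66 or 68 the number at an adjusted p under 0.05 was 5, 4, 4 or 3. Members came to an unadjusted p under 0.05 by limma in some of these fits. They were miR-467b-5p and miR-467d-5p without mouse 61, miR-467d-5p without mouse 64 and miR-467c-5p without mouse 65. Of all miRNAs tested, 68 of 486, 56 of 483 and 93 of 483 did so in these 3 fits. With all mice, the smallest adjusted p by limma among the 5 was 0.365, for miR-467d-5p. It was followed by miR-467b-5p with 0.472, miR-467c-5p with 0.532, miR-669c-5p with 0.571 and miR-669o-5p with 0.934. The mouse and any batch of preparation that both its retinas shared cannot be told apart.

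The scatter of the tested members was compared with that of other miRNAs of like level. Over the 10 libraries the SD of the log2 values was 1.16 for miR-467c-5p, 0.78 for miR-467b-5p, 0.58 for miR-669c-5p, 0.55 for miR-467d-5p and 0.41 for miR-669o-5p. The median SD of the 164 other miRNAs with a mean from 10 up to 50 was 0.38. Of these 164, 5 had a larger SD than miR-467c-5p, 14 than miR-467b-5p, 35 than miR-669c-5p, 41 than miR-467d-5p and 72 than miR-669o-5p. The places moved when 1 library was left out. It was the library farthest from the median of the tested miRNA, and the same library was left out of the 164. As it was not chosen as the farthest for each of the 164, a fall in place was favoured by the choice. The SD of miR-467c-5p was then 0.32 and 113 of the 164 had a larger one (without the left library of mouse 65). For miR-467b-5p it was 0.57, with 37 larger (without the left library of mouse 66), and for miR-669o-5p 0.27, with 134 larger (without the right library of mouse 65). For miR-467d-5p and miR-669c-5p it was 0.45 and 0.48, with 55 and 46 larger (without the left library of mouse 66 and the right library of mouse 64). The median SD of the 164 was 0.37 to 0.38 with these libraries left out. The SDs of miR-467b-5p, miR-467d-5p and miR-669c-5p still lay above it, and those of miR-467c-5p and miR-669o-5p lay below it. This comparison was chosen after the values were seen.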

How the data were processed

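The authors deposited 1 table of 1061 mature miRNAs in 10 retinal libraries, whose values are a signal derived from read counts and called normalised counts in its name. The submitters' processing notes name Partek and Bowtie, with no version, and GRCm38 and mm10 as builds. TruSeq Small RNA libraries started from 50 ng of small RNA, per the labels' protocols. Sorted values were equal in all libraries at 342 ranks and totals ran from 17312269 to 17312436, as quantile normalisation gives. Depth is therefore unknown, values reflect ranks, and no counting intervals were given. The table held 0 columns of other samples.

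miRNAs with a mean of at least 10 (484) were fitted as log2(value + 1) with limma 3.58.1 in R 4.3.3, with side and mouse as terms and a mean-variance trend. Tests of right minus left (two-sided) and of mouse (F test) were adjusted by Benjamini-Hochberg over all 484, with a threshold of 0.05. The fit was tried on simulated data with independent, normally distributed noise. Those data lack the tied values and single low libraries seen here, so they do not give the power for this table. Both retinas of a number are from 1 animal. Their deviations from the mean of each side correlated across miRNAs by 0.0893 to 0.382, with a median of -0.0824 for eyes of different mice. Taking out the mean of each side itself lowers the correlations between different mice, so their median is no independent baseline. Positions are the table's, with the end taken as the last base (it lay 1 base further for 908 of 908 miRNAs found in RefSeq). Hosts are from GENCODE M21.

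The members and lists were chosen with earlier results of these data known. The rule for named miRNAs took the 10 highest means, the tested members, the 3 on either side of the minimum, the 4 highest outside Sfmbt2 and the opposite arms, 14 in all. It also took seed groups, which could not be formed from 3 sequences. Other miRNAs are named for shared or single high values seen in the data.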

Additional observations from a re-analysis of the deposited data

Results flagged for a closer look

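In groups of 5 retinas, the highest or lowest library was set apart by its gap to the next. The gap had to exceed 0.71 of the range of the log2(value + 1) values. Chance gives this in about 1 of 20 groups of normally distributed values, and that rate does not hold where most values are 0. Of 32 groups checked, 7 had such a library. The share among the other miRNAs was not computed, so the count cannot be called particular to these families. The left library of mouse 65 had 2.53 normalised reads of miR-467c-5p, with 33.9 to 53.7 in the other left retinas, and miR-467b-5p was at 6.14 in that of mouse 66, with 22.8 to 37.2 in the others. miR-467a-5p was at 21.6 in the left retina of mouse 66 (others 2.29 to 4.36) and at 22.1 in the right retina of mouse 61 (others 1.33 to 2.94). miR-669o-5p was at 13.9 in the right retina of mouse 65, with 27.0 to 33.4 in the others. Near the lower end of the table, miR-466i-3p was at 5.00 in the left retina of mouse 61 and listed at 0 in the other 4 left retinas, and miR-466q was at 0.653 in the left retina of mouse 65, with at most 0.132 in the others.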

How the results depend on the processing

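In right minus left retina, 0 miRNAs passed in limma under each of 12 alternatives, members included: pseudocounts of 0.5 and 8, no filter (38 members tested), a mean of at least 50 (0 members left), median-ratio scaling, no mean-variance trend, each mouse left out, and no replicate block for the mouse, which gave 0 calls as well. Between mice, 0 members were called under any alternative that tested them. The count of all miRNAs called between mice went from 8 to 10 with median-ratio scaling, to 5 without the trend and to 3 to 7 when each mouse was left out. The cause was not tested. With each mouse left out, the log2 fold change ran from -0.48 to 0.16 for miR-467b-5p, from -0.10 to 0.76 for miR-467c-5p and from -0.24 to 0.23 for miR-669o-5p, so that the sign of each turned once, without mouse 61 for the first and without mouse 65 for the others. The signs of miR-467d-5p and miR-669c-5p were the same under all 11 alternatives. The share of the members was 0.00108% with those inside Sfmbt2 and 0.00105% with identical profiles counted once, an alternative chosen after seeing the data. Counting identical mature sequences once was not run, since 3 sequences were at hand. Depth is unknown, and the 33 members below a mean of 10 have no test in the fit reported.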
